A study of Mus musculus with 23 samples.

Results

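The genes described here were 9 inhibitors that ERK signalling induces against itself: Dusp1, Dusp4, Dusp5 and Dusp6, Spry1, Spry2 and Spry4, and Spred1 and Spred2. They were chosen by name, as the listed dual-specificity phosphatase, Sprouty and Spred genes with a row in both count tables, and make up 9 of the 24985 gene symbols in each table. The RNA came from the hippocampus of C57BL6/J mice in which exons 3 to 7 of Acss2, the gene of a nuclear and cytosolic acetyl-CoA synthetase, had been deleted in single-cell embryos, so that each cell of a KO mouse lacked them from the start. In the dorsal experiment, 1 mm sections held 4 KO fear, 5 KO home cage, 3 WT fear and 5 WT home cage libraries, where fear stands for mice killed 30 min after contextual fear conditioning with 1 shock. The whole hippocampus experiment held 2 KO, 2 Het (1 deleted copy) and 2 WT libraries, all from the home cage. The home cage was the only control for fear, so the shock cannot be told apart from handling or the context. No label says that the libraries are separate animals, and p-values then measure the spread between these samples, which may be technical. All 9 genes passed the filter on low counts in both experiments.

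Growth factors, neurotrophins and calcium entry into neurons activate Ras, which passes the signal through Raf and MEK kinases to the ERK kinases. Active ERK drives the transcription of immediate early genes in neurons, and that response is needed for the hippocampus to store a contextual memory. The same signal raises its own inhibitors: the Dusp phosphatases remove the phosphates from active ERK and related kinases, while the Sprouty and Spred proteins act upstream, at the receptors, Ras and Raf.

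Library totals ran from 5362773 to 23412644 counts in the dorsal experiment and from 18814460 to 27293661 in whole hippocampus. The dorsal labels name batches: KO fear 1 and 2, all 3 WT fear libraries and WT home cage 1 and 2 were of B1, KO home cage 1 to 3 and WT home cage 3 to 5 of B2, and KO fear 3 and 4 and KO home cage 4 and 5 of B3. Batch B1 was the shallowest, with 5362773 to 9109104 counts per library. Acss2 followed the labels, at 5.18 to 6.04 CPM (reads scaled to the size of the library) in KO fear, 3.87 to 5.85 in KO home cage, 56.2 to 57.7 in WT fear and 57.6 to 71.3 in WT home cage, and at 6.73 to 7.02 in KO, 31.2 to 34.3 in Het and 60.3 to 60.9 in WT whole hippocampus. As markers of the labelled tissue, each of 6 pan-neuronal genes had 203 CPM or more in every library, and no marker of CA1, CA2 and CA3 or the dentate gyrus was at 0 in any. In whole hippocampus the KO libraries expressed the Y-linked gene Ddx3y at 89.6 to 101 CPM, with 0.107 to 0.186 CPM in Het and 0 reads in WT, so sex and KO cannot be told apart there; every dorsal library expressed it. Het 2 stood apart from Het 1: with Het 2 as the only Het library, 1424 genes differed from WT, and with Het 1 as the only one, 0 did.

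The windows before the transcription start are shown for 4 genes, Dusp6 and Spred1 because they rose after conditioning in WT, and Dusp1 and Dusp5 because they held motifs of factors that ERK signalling activates. Of the 9 genes 7 had a window in the RefSeq promoter table of GRCm38.p6, and each run gives the 250 bases before the start, 5′ to 3′, with motif matches in capitals. The motifs searched on both strands were the full cAMP response element TGACGTCA and its core TGACG, which the full element contains, the EGR site GCGNGGGCG, the ETS core CCGGAA and the CArG box of serum response factor.
Dusp6, chr10:99262981-99263230, plus strand: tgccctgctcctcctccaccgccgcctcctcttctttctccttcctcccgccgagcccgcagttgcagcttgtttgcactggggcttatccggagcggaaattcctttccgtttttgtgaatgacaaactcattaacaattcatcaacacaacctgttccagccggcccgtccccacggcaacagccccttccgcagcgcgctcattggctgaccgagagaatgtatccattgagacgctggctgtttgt
Spred1, chr2:117120821-117121070, plus strand: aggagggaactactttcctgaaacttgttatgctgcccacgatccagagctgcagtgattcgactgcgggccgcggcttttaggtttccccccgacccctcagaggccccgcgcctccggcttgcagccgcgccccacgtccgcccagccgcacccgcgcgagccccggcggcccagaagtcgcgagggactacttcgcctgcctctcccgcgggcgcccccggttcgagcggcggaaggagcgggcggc
Dusp1, chr17:26508473-26508722, minus strand: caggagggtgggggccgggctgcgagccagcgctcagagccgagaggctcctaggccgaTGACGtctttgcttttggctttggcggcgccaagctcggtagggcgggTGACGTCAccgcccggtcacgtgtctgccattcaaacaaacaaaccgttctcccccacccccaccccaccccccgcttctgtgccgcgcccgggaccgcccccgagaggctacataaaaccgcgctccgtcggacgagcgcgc
Dusp5, chr19:53528895-53529144, plus strand: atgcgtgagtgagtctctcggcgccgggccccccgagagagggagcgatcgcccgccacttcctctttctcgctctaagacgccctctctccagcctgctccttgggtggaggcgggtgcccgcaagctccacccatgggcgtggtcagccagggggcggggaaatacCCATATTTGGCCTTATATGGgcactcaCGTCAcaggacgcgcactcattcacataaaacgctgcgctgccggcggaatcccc

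The Dusp1 window held 1 full cAMP response element, 143 bases before the start (offset -143), and a separate core at -191. Over the 32851 windows of the table, 1.55% held a full element and 17.8% a core. The Dusp5 window held 2 CArG boxes side by side at -82 and -72, against 1.47% of windows with at least 1 such box, and a core of the cAMP response element at -55 on the other strand. Spred2 held a core at -51. The windows of Dusp6, Spred1, Spry1 and Spry2 held none of these letters, and the EGR site and the ETS core, present in 4.7% and 12% of all windows, were in 0 of the 7. Spry4 and Dusp4 are named only. A match is a description of the letters, and nothing follows from its absence in a window of this size.

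On mm10, Dusp6 (ENSMUSG00000019960.8) spans chr10:99263231-99267489 and Dusp4 chr8:34807297-34819894, with no overlapping gene in GENCODE M21. Spry2 at chr14:105891947-105896819, Spred1 at chr2:117121374-117182279 and Spred2 at chr11:19924375-20024026 are also free of overlaps, and Spred1 shares its chromosome with Acss2. The other 4 overlap a gene of the opposite strand, and reads of the partners cannot be told apart in libraries that do not mark strand. Dusp1 at chr17:26505590-26562128 overlaps Ergic1 and Gm8225, and on its own strand AC122252.1 and AC122252.4, Dusp5 at chr19:53529109-53542431 overlaps AC137853.2, Spry1 at chr3:37639947-37644598 overlaps Gm42922, and Spry4 at chr18:38586247-38601415 overlaps Gm27369 and Gm27804. Values for these 4 are uncertain to that extent.

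Per kilobase of exon, Spry2, Spred1 and Dusp6 were the 3 most abundant of the 9 in each of the 7 groups. In the WT home cage, Spry2, a Sprouty that restrains growth factor receptor signalling, led with 25.8 ± 1.1 CPM per kb, ahead of Spred1 with 21.5 ± 1.8 and Dusp6, the cytoplasmic phosphatase specific for ERK, with 17.8 ± 1.5 (SD, n = 5). These 3 stood apart from each other by more than 1 SD of each. Spred2 with 12.2 ± 1.7 and Dusp4, an inducible nuclear phosphatase, with 11.98 ± 1.40 did not differ beyond that spread. The lowest 4 were Dusp5, a nuclear phosphatase specific for ERK, with 4.67 ± 0.93, Spry1 with 3.48 ± 0.60, Dusp1, a nuclear phosphatase of p38, JNK and ERK, with 2.82 ± 0.44 and Spry4 with 2.41 ± 0.31, and none of these neighbours differed beyond the spread. In WT fear the order of the top 3 was Dusp6 with 32.4 ± 3.6, Spred1 with 32.2 ± 3.3 and Spry2 with 23.7 ± 0.76 CPM per kb (SD, n = 3), the first 2 within the spread. In KO fear the same 3 lay between 23.3 and 24.4 CPM per kb, in KO home cage Spry2 and Dusp6 did not differ beyond their spread, and Spry4 was last in both KO groups.

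**Figure D1:**
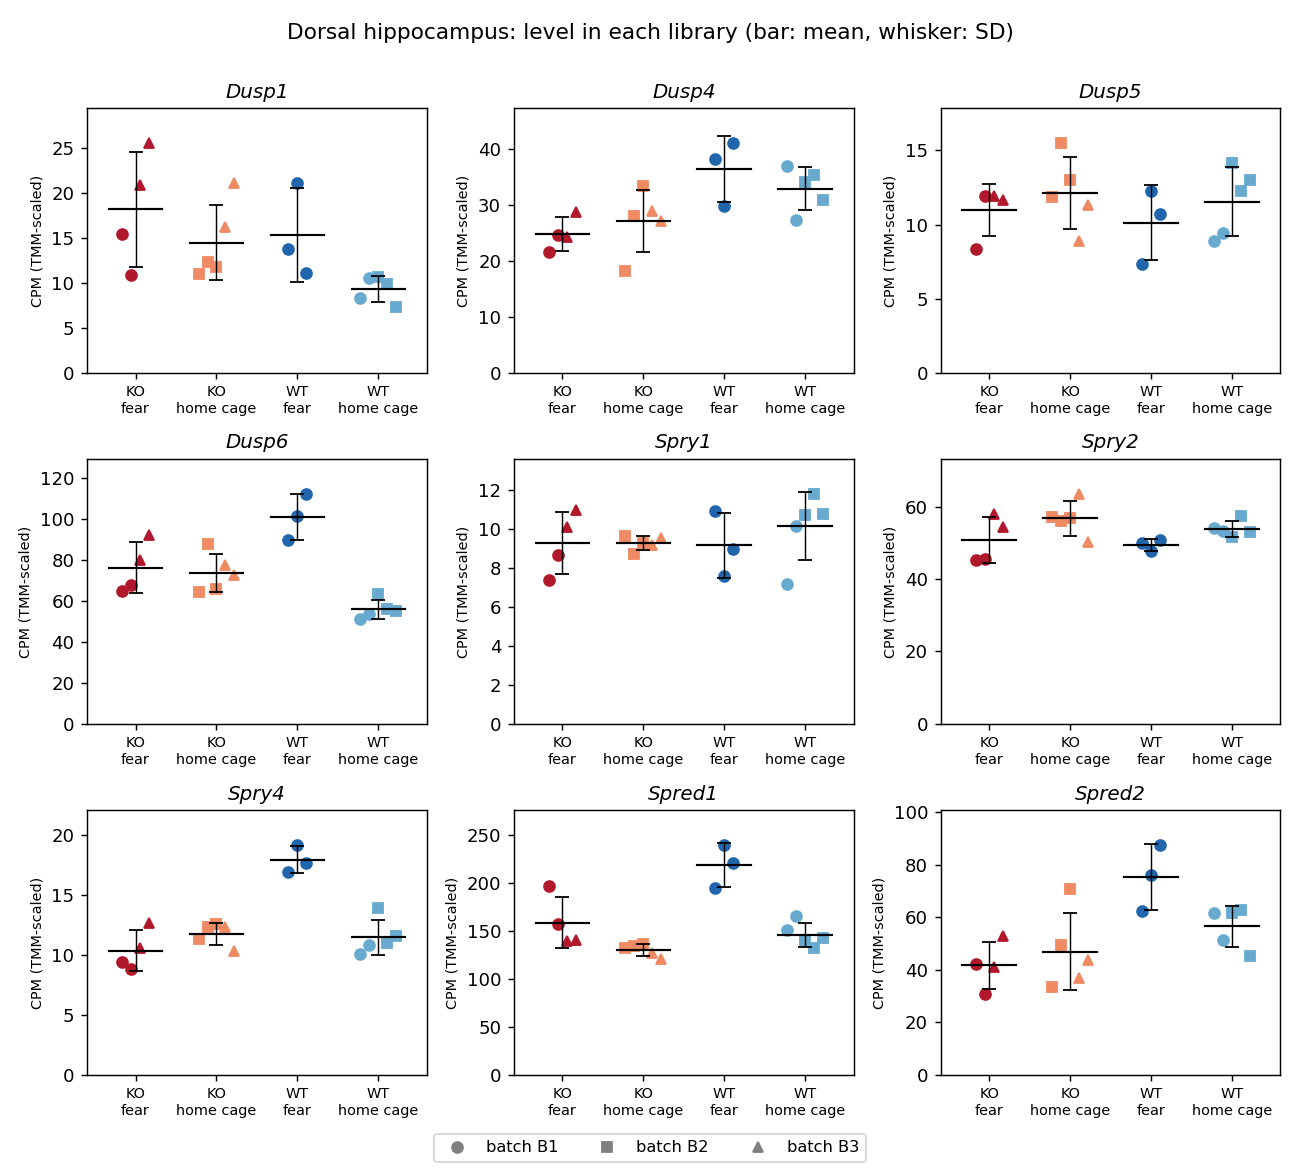
Level of each of the 9 genes in each dorsal library in TMM-scaled CPM (y axis, from 0), by group, with the group mean (bar) and SD (whisker) and the batch as the shape of the point. The 3 WT fear libraries stand above all other groups for Spry4 (16.9 to 19.2 CPM) and above all WT home cage libraries for Dusp6, Dusp1, Spry4 and Spred1.

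Conditioning in WT mice was set against the home cage to ask which of these inhibitors respond within 30 min. Dusp6, Spry4 and Spred1 rose, 3 of the 9, where 0.871% of the 14808 genes tested were called higher, and 0 of the 9 were called lower, against 0.756% of all genes (1.63% in either direction). The 9 genes were chosen with earlier results of these data known, so the shares set beside them are a description. The median log2 difference of the 9 was 0.47, and that of all genes was -0.02. The number of genes called in the whole table, 241, was 6 without WT home cage 2 and 829 without WT home cage 1. Between WT fear and WT home cage the libraries of 4 of the 9 did not overlap and were higher, against 7.7% of all genes, and those of Spry2 did not overlap and were lower, against 8.45%.

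Dusp6 stood at 90.0, 102 and 112 CPM in the WT fear libraries, against 51.3, 53.5, 63.5, 56.1 and 55.1 CPM in the WT home cage. Every WT fear library was higher than every WT home cage library. The log2 difference was 0.99 ± 0.13 (SE; edgeR adjusted p = 0.00204), and within batch B1 alone it was 0.97 ± 0.14, with an adjusted p of 0.0668 in that smaller fit. Dusp6 passed in each of the 17 fits that left out 1 library.

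Spry4, a Sprouty that blocks the activation of Ras and Raf, had 16.9, 19.2 and 17.7 CPM in WT fear, against 10.1, 10.8, 13.9, 10.97 and 11.5 CPM in the WT home cage. The groups did not overlap. It rose 1.78-fold (log2 0.83 ± 0.14, edgeR adjusted p = 0.0171), by 0.80 ± 0.16 within B1 (adjusted p = 0.125). The call was lost without WT home cage 2, WT fear 2 or WT fear 3, with a log2 difference of 0.78 to 0.90 and an adjusted p of up to 0.0931 over the 17 fits.

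Spred1, which brings the Ras inactivator neurofibromin to the membrane, had 195, 240 and 221 CPM in WT fear, against 150, 165, 140, 132 and 143 CPM in the WT home cage. Again the groups did not overlap. It rose 1.38-fold (log2 0.47 ± 0.10, edgeR adjusted p = 0.0382), by 0.48 ± 0.13 within B1 (adjusted p = 0.211). The call was the least stable of the 3, lost in 10 of the 17 fits: without WT home cage 1, 2, 4 or 5, WT fear 2 or 3, KO home cage 4 or 5, or KO fear 3 or 4, with a log2 difference of 0.40 to 0.57 and an adjusted p of up to 0.215.

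Dusp1 had 13.7, 21.2 and 11.1 CPM in WT fear, against 8.31, 10.5, 10.6, 9.91 and 7.35 CPM in the WT home cage. These groups did not overlap either, but the 3 WT fear libraries were widely spread, and the log2 difference of 0.76 ± 0.24 did not pass (edgeR adjusted p = 0.091; DESeq2 adjusted p = 0.0316, within a range of up to 0.384 over the alternatives). Spred2, a second Spred that inhibits Raf activation, had 62.3, 76.0 and 87.5 CPM in WT fear, against 61.4, 51.2, 61.6, 62.8 and 45.3 CPM in the WT home cage. The lowest WT fear library lay within the home cage range, and the difference of 0.55 ± 0.24 did not pass (edgeR adjusted p = 0.212). Dusp4 at 0.19 ± 0.19, Dusp5 at 0.20 ± 0.19, Spry1 at 0.06 ± 0.17 and Spry2 at -0.06 ± 0.11 did not pass either (edgeR adjusted p of 0.569 to 0.847). Spry2 ran from 47.7 to 50.8 CPM in WT fear and from 51.6 to 57.6 CPM in the WT home cage, a narrow range in both.

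The same contrast in KO mice gave no call. Between KO fear and KO home cage, 0 of the 9 genes passed by edgeR and 0 by DESeq2, and none of the 9 reached an unadjusted p below 0.05. Of all genes, 0 passed by edgeR (0%) and 6 by DESeq2, while 714 (4.82%) reached an unadjusted p below 0.05. The median log2 difference of the 9 was 0.13 and that of all genes was 0.00 (-0.0017).

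Dusp6 had 64.8, 68.0, 80.0 and 92.2 CPM in KO fear, against 64.4, 87.7, 66.1, 77.5 and 72.8 CPM in the KO home cage. The groups overlapped almost fully, with a log2 difference of 0.13 ± 0.12 (edgeR adjusted p = 0.968). In batch B3 alone it was 0.19 ± 0.10. Spry4 had 9.43, 8.79, 10.5 and 12.6 CPM in KO fear, against 11.3, 12.3, 12.6, 12.3 and 10.3 CPM in the KO home cage, a difference of -0.04 ± 0.12. KO fear 1 and 2, both of B1, lay below every KO home cage library.

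Spred1 had 196, 157, 139 and 140 CPM in KO fear, against 132, 134, 136, 127 and 120 CPM in the KO home cage. It was the 1 gene of the 9 whose KO groups did not overlap, against 2.33% of all genes that were higher without overlap (1.97% were lower), and its difference of 0.19 ± 0.09 had an edgeR adjusted p of 0.968. The 2 highest values were those of the B1 libraries KO fear 1 and 2, and no KO home cage library was of B1. Dusp1 had 15.4, 10.8, 20.9 and 25.6 CPM in KO fear, against 11.01, 12.3, 11.8, 16.2 and 21.1 CPM in the KO home cage. In both conditions its B3 libraries were higher than its libraries of the other batch, and the log2 difference was 0.26 ± 0.19. The other 5 genes had log2 differences of -0.12 to 0.19.

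**Figure D2:**
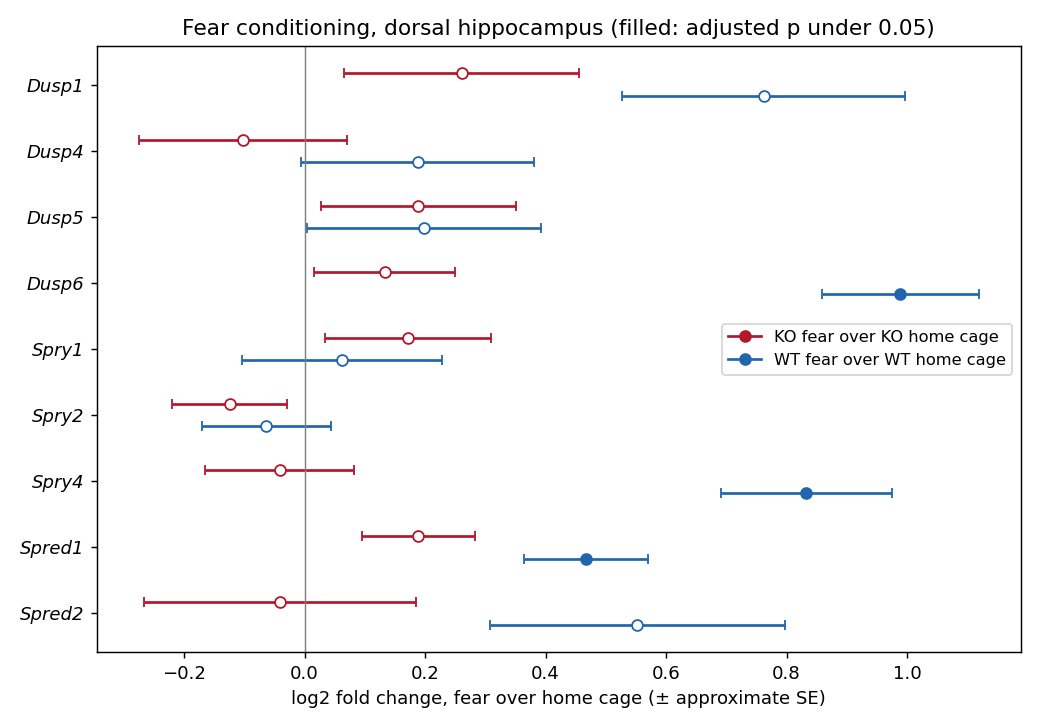
Log2 fold change of fear over home cage (x axis) for each of the 9 genes (y axis) in KO and in WT dorsal hippocampus, with the approximate SE as the whisker and a filled point where the edgeR adjusted p was under 0.05. Dusp6 and Spry4 differ most between genotypes, at 0.13 and -0.04 in KO and 0.99 and 0.83 in WT.

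Whether the response differed with genotype was tested as the interaction, the fear difference in KO minus that in WT. It was negative and passed for Dusp6 and Spry4, 2 of the 9, where 0.284% of all genes were called lower and 0.196% higher. Dusp6 had an interaction of -0.86 ± 0.15 and Spry4 of -0.87 ± 0.16 (log2; edgeR adjusted p = 0.0406 for both). The estimates moved little across the 22 alternatives, from -0.96 to -0.77 for Dusp6 and from -0.94 to -0.81 for Spry4, but the calls did not hold: Dusp6 passed in 8 and Spry4 in 7 of them, with an adjusted p of up to 0.217. The call of each was lost without WT home cage 2, 3, 4 or 5, WT fear 2 or 3, KO home cage 4 or 5, or any of the 4 KO fear libraries, and that of Spry4 also without KO home cage 2 (adjusted p of up to 0.186). The count of called genes in the whole table moved likewise, from 71 to between 0 and 1007 in those fits. Spred1 at -0.28 ± 0.12, Spred2 at -0.59 ± 0.29 and Dusp1 at -0.50 ± 0.26 did not pass (edgeR adjusted p = 0.187, 0.235 and 0.263), so a difference between genotypes was not shown for the rise of Spred1. Dusp4 at -0.29 ± 0.22, Dusp5 at -0.01 ± 0.21, Spry1 at 0.11 ± 0.18 and Spry2 at -0.06 ± 0.12 did not pass.

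KO and WT mice were also compared directly after conditioning. These WT fear libraries are the ones used above, and the 2 sets of results are not independent. Spry4, Dusp6, Spred2, Dusp4 and Spred1 were lower in KO fear, 5 of the 9, where 12.1% of all genes were called lower and 10.2% higher. The median log2 difference of the 9 was -0.32, and that of all genes was 0.01.

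Spry4 was 1.90-fold lower in KO fear than in WT fear (log2 -0.93 ± 0.14, edgeR adjusted p = 0.0155), with all 4 KO fear libraries below all 3 WT fear libraries. Spred2 was 1.87-fold lower (-0.90 ± 0.26, edgeR adjusted p = 0.0247), with 42.1, 30.7, 41.0 and 52.6 CPM in KO fear, all below the WT fear values given above. Dusp4 had 21.5, 24.6, 24.3 and 28.7 CPM in KO fear, against 38.2, 29.7 and 41.0 CPM in WT fear, and was 1.55-fold lower (-0.64 ± 0.20, edgeR adjusted p = 0.0331). Its groups did not overlap. In all, 3 of the 9 genes were lower without overlap, against 10.6% of all genes, and 0 were higher, against 10.7%.

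Dusp6 differed by -0.58 ± 0.13 (edgeR adjusted p = 0.0155) and Spred1 by -0.32 ± 0.10 (edgeR adjusted p = 0.0384), both with overlap: KO fear 4 reached 92.2 CPM of Dusp6, above WT fear 1, and KO fear 1 reached 196 CPM of Spred1, also above WT fear 1. Within B1, where 2 KO fear and 3 WT fear libraries could be compared, Spry4 differed by -0.97 ± 0.20, Dusp6 by -0.60 ± 0.16, Spred2 by -1.04 ± 0.20 and Dusp4 by -0.64 ± 0.19 and passed, while Spred1 at -0.30 ± 0.16 did not (edgeR adjusted p = 0.214). All 5 calls were lost without WT fear 2, without WT fear 3 or without KO fear 2, fits in which 2, 1 and 1 genes of the whole table passed, against 3298 with all libraries. Dusp4 was lost as well without KO fear 1 or 3, Spred2 without KO fear 1, and Spred1 without WT home cage 3, KO home cage 2, 4 or 5, or KO fear 3, with an adjusted p of up to 0.209 over the 5 genes. Dusp1 at -0.21 ± 0.23, Spry1 at -0.16 ± 0.17, Spry2 at -0.06 ± 0.11 and Dusp5 at 0.00 ± 0.20 (log2) did not pass.

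In the home cage, KO against WT asked what the deletion does at rest, and 0 of the 9 passed by edgeR or by DESeq2, with 1 gene of 14808 called (0.00675%, by edgeR) and 3 of the 9 at an unadjusted p below 0.05, as were 11.3% of all genes. Without KO home cage 3, 585 genes passed (3.96%), with 0 of the 9 among them. KO home cage 1 and 3 had the highest chi-square per gene of any pair of libraries of a group (62.1). That measure also grows with depth, and these 2 libraries had 19988236 and 23412644 counts. Dusp6, in the libraries given above, was 64.4 to 87.7 CPM in KO and 51.3 to 63.5 CPM in WT, higher without overlap by 0.28 ± 0.10 (1.21-fold, edgeR adjusted p = 0.44). Dusp1 was 11.01 to 21.1 CPM in KO and 7.35 to 10.6 CPM in WT, also without overlap (0.29 ± 0.18, adjusted p = 0.487). These were 2 of the 9, against 1.71% of all genes higher without overlap. Dusp4 had 18.2, 28.0, 33.3, 28.8 and 27.1 CPM in KO, against 36.8, 27.2, 34.0, 35.3 and 30.8 CPM in WT. The groups overlapped at a difference of -0.35 ± 0.15, and Spry1 gave -0.27 ± 0.12 (edgeR adjusted p = 0.44 for both). Spred2 varied more than 2-fold within the KO home cage group, at 33.5, 49.3, 70.7, 36.7 and 43.7 CPM (-0.31 ± 0.20 against WT). Within B2, the batch with 3 libraries of each genotype, Dusp6 differed by 0.33 ± 0.14 and Dusp1 by 0.34 ± 0.15 (adjusted p = 0.817 for both). All 8 CA1 markers were above 0 in the same contrast, with 0 called and 2 at an unadjusted p below 0.05, and their part in it was not tested.

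Markers of other cell types moved with the same groups. In bulk tissue, fewer cells of a type and less RNA per cell cannot be told apart. In WT fear against WT home cage, 5 of 8 markers of CA1 pyramidal neurons were called higher, and their summed level was 732 to 1253 CPM in WT fear and 429 to 625 CPM in the WT home cage. Of 10 oligodendrocyte markers 8 were called lower, with sums of 3820 to 5180 CPM in WT fear and 6658 to 13323 CPM in the WT home cage, and 3 of 6 CA2 and CA3 markers were lower, with 226 to 434 CPM against 547 to 851 CPM. Of 6 ependymal markers 2 were called lower, at 6.44 to 8.28 CPM in sum in WT fear and 28.3 to 80.3 CPM in the WT home cage. Between KO fear and WT fear, 6 of 8 CA1 markers were lower (409 to 1042 CPM in KO fear), and 8 of 10 oligodendrocyte markers (6529 to 10325 CPM), 6 of 6 ependymal markers (21.3 to 63.7 CPM) and 3 of 6 CA2 and CA3 markers (439 to 674 CPM) were higher. In the interaction 3 of 8 CA1 markers were lower, and 1 marker each of CA2 and CA3, ependymal, astrocyte (Gfap), mural (Acta2) and choroid plexus (Sostdc1) cells was higher. The 8 CA1 markers ran from -2.04 to -0.72 on the log2 scale there. The 10 oligodendrocyte markers ran from 0.92 to 1.53, with no call (edgeR adjusted p of 0.0601 to 0.124). The mural sums of 58.5 to 81.9 CPM in WT fear also lay below the 87.0 to 125 CPM of the WT home cage, as did the endothelial sums, at 36.6 to 42.9 CPM against 46.8 to 83.5 CPM. The thalamus sums were 33.3 to 65.7 CPM in WT fear and 79.1 to 122 CPM in the WT home cage. Between KO fear and WT fear, 4 of 6 choroid plexus, 3 of 7 astrocyte and 2 of 6 mural markers were called higher, and 2 of 6 dentate gyrus, 2 of 6 pan-neuronal and 2 of 5 neocortex markers lower. No oligodendrocyte marker was at 0 in any dorsal library, while the ependymal markers Tmem212 and Dynlrb2 each had 0 reads in 1.

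KO libraries spanned a wide range of CA1 marker levels. KO fear 3 and 4 had CA1 sums of 928 and 1042 CPM and KO home cage 2 to 5 had 943, 779, 1010 and 938 CPM, all within the range of WT fear, though they were of B2 and B3 and WT fear was of B1. Of these 6 libraries, those of the KO home cage came from mice that were not conditioned. Spry4 in the 6 libraries was 10.3 to 12.6 CPM, below the 16.9 to 19.2 CPM of WT fear. Dusp6 in them was 66.1 to 92.2 CPM, with 1 library, KO fear 4, above the lowest WT fear library. KO fear 1 and 2, the only KO libraries of the batch of WT fear, had the low CA1 sums of 457 and 409 CPM. For the oligodendrocyte markers no library of another group reached down to the WT fear range, and the part of the CA1, oligodendrocyte and other markers in the results was not tested.

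**Figure D3:**
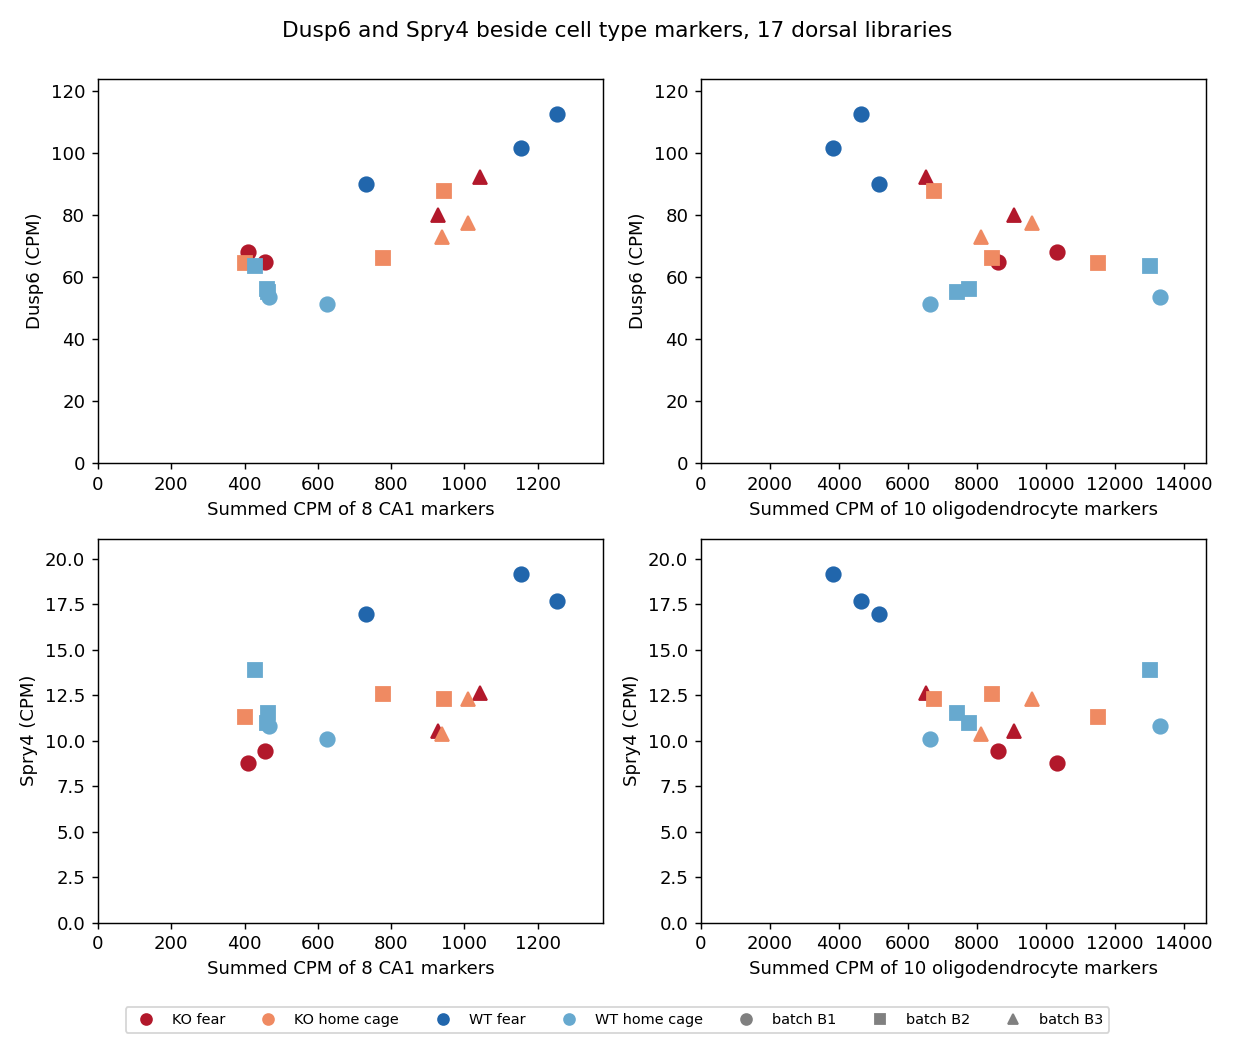
Dusp6 (top) and Spry4 (bottom) in CPM (y axes, from 0) against the summed CPM of 8 CA1 markers (left) and 10 oligodendrocyte markers (right) in the 17 dorsal libraries, coloured by group and shaped by batch. KO fear 3 and 4 and KO home cage 2 to 5 have CA1 sums of 779 to 1042 CPM. These KO libraries, of B2 and B3, lie below the 3 WT fear libraries in Spry4. The WT fear libraries, of B1, have CA1 sums of 732, 1154 and 1253 CPM, and the KO home cage mice were not conditioned. The part of the markers in this was not tested.

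In whole hippocampus at rest, 0 of the 9 genes passed in KO against WT by edgeR or DESeq2, where 6 of 15453 genes were called (0.0388%), and 1 of the 9 reached an unadjusted p below 0.05, as did 6.09% of all genes. That gene was Spred2, with 66.9 and 71.6 CPM in KO, against 62.1 and 55.9 CPM in WT (0.23 ± 0.07, edgeR adjusted p = 0.774). Dusp6 differed little, at 66.3 CPM in both KO libraries and 64.2 and 64.1 CPM in WT. With 2 libraries a group, lack of overlap is common: 3 of the 9 genes were higher without overlap, against 20.2% of all genes, and 5 were lower, against 21.9%. Dusp1 was among the lower ones, with 16.1 and 16.4 CPM in KO, against 23.8 and 20.3 CPM in WT (-0.44 ± 0.33, edgeR adjusted p = 0.877). All 10 oligodendrocyte markers were above 0 in log2 difference in the same contrast, with 0 called, at 7758 to 8148 CPM in sum in KO and 6370 to 6579 CPM in WT.

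In Het mice, Spry2 was above, and Dusp4, Dusp5, Spry1 and Spry4 were below, all KO and WT libraries in both Het libraries. The share of all genes that stood apart from both genotypes was not counted, so this is a description. Against WT alone, 23.7% of all genes were higher and 22.9% lower in Het without overlap. Dusp5 and Spry2 had the smallest p-values of these. Dusp5 levels were 14.0 and 14.6 CPM in KO, then 9.0 and 6.43 CPM for the Het libraries, against 16.5 and 15.9 CPM in WT. Both Het libraries lay below all others, by 1.08 ± 0.16 on the log2 scale against WT (2.11-fold, edgeR adjusted p = 0.167), and KO was higher than Het by 0.90 ± 0.16 (1.87-fold, edgeR adjusted p = 0.21). Spry2 levels were 46.0 and 46.9 CPM in KO, then 62.7 and 64.3 CPM for the Het libraries, against 48.9 and 48.0 CPM in WT. Both Het libraries lay above all others, with Het 0.39 ± 0.05 above WT (1.31-fold, edgeR adjusted p = 0.143) and KO -0.45 ± 0.05 against Het (1.37-fold lower, edgeR adjusted p = 0.0715).

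Neither contrast with Het had a call among the 9 by edgeR. In Het against WT, 0 genes of 15453 passed by edgeR (0%), while 147 did by DESeq2, with 2 of the 9 among them, and 5 of the 9 reached an unadjusted p below 0.05, as did 13.9% of all genes. In KO against Het, 13 genes passed by edgeR (0.0841%) and 137 by DESeq2, again with 2 of the 9, and 4 of the 9 reached an unadjusted p below 0.05, as did 13.2% of all genes. In both contrasts the 2 that DESeq2 called were Dusp5 and Spry2. Without overlap, 2 of the 9 were higher in Het than in WT, against 23.7% of all genes, and 4 lower, against 22.9%, while 5 were higher in KO than in Het, against 20%, and 2 lower, against 23%. Het 2 alone set other values: Dusp1 had 20.3 and 44.2 CPM in Het, and Het against WT was 0.56 ± 0.32 with both, 1.00 without Het 1 and -0.12 without Het 2. Dusp6 had 59.3 and 77.6 CPM and Spred1 166 and 202 CPM in Het, higher in Het 2 in each case. In KO against Het, Dusp1 was at -1.44 without Het 1 and -0.32 without Het 2, and Dusp4 at 0.56 and 0.13. Dusp5 was at 1.16 and 0.67 in the same 2 fits, and Spry2 at -0.47 and -0.43. Without Het 2, Dusp5 was at -0.85 and Spry2 at 0.37 in Het against WT (edgeR adjusted p = 0.177 and 0.236). The dissection markers of the 2 Het libraries differed too, with neocortex sums of 178 CPM in Het 1 and 229.5 CPM in Het 2. These sums were 144 to 152 CPM in KO and WT. Dentate gyrus sums were 337 and 222 CPM in Het, against 364 to 410 CPM, and CA1 sums 851 and 619 CPM, against 802 to 888 CPM. Choroid plexus sums differed within each genotype, at 4010 and 32.5 CPM in KO 1 and 2. They were 36.7 and 969 CPM in Het 1 and 2, and 35.1 and 2546 CPM in WT 1 and 2. The part of these markers in the whole hippocampus values was not tested.

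**Figure D4:**
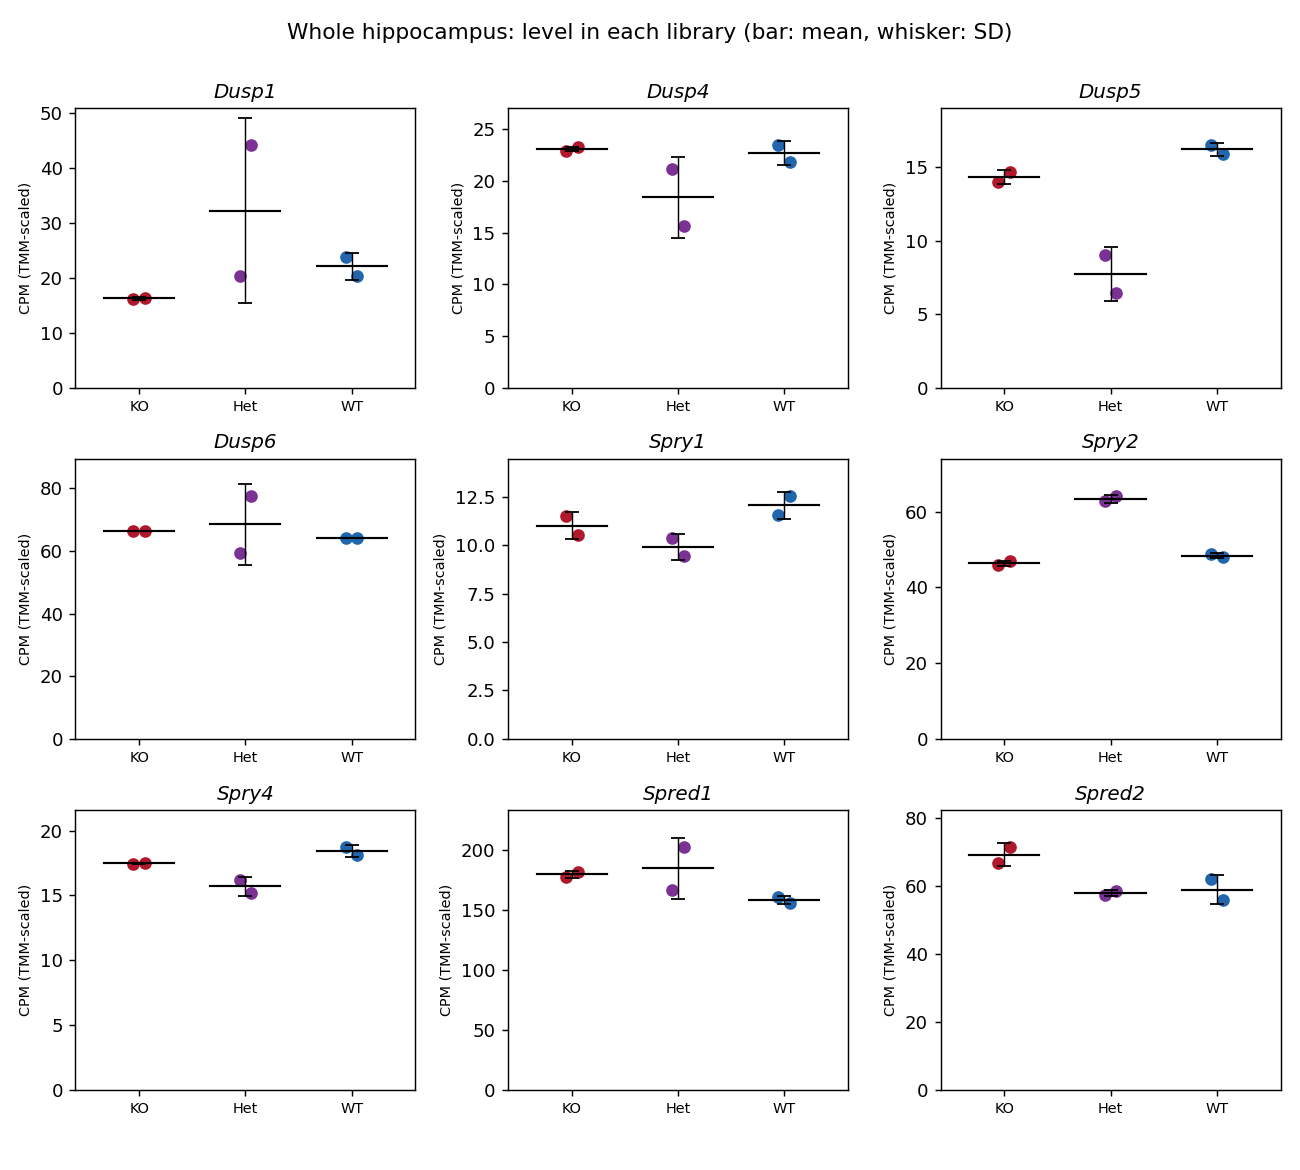
Level of each of the 9 genes in each whole hippocampus library in TMM-scaled CPM (y axis, from 0) in KO, Het and WT, with the mean (bar) and SD (whisker) of 2 libraries. Both Het libraries are lowest for Dusp5 (9.0 and 6.43 CPM) and highest for Spry2 (62.7 and 64.3 CPM), while 1 Het library stands alone for Dusp1 (44.2 CPM).

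The wider pathway was followed in 4 lists, also chosen with earlier results of these data known. Of 17 genes transcribed in response to ERK, 10 rose in WT fear against WT home cage, where 0.871% of all genes did: Egr2, Fos, Junb, Arc, Fosb, Nr4a1, Egr1, Egr4, Egr3 and Ier2. The zinc finger factor Egr1 rose by 1.52 ± 0.23 and the AP-1 factor Junb by 1.51 ± 0.20 on the log2 scale (edgeR adjusted p = 0.00802 and 0.00204). In KO fear against KO home cage 0 of the 17 passed by edgeR. Of the 17, 5 reached an unadjusted p below 0.05, as did 4.82% of all genes. Fos at 1.28 ± 0.25 and Egr2 at 1.93 ± 0.38 were among the 5 (edgeR adjusted p = 0.404 for both). The interaction passed for 3, against 0.479% of all genes, at -2.75 ± 0.53 for Egr2, -1.15 ± 0.22 for Junb and -1.38 ± 0.27 for Egr1 (edgeR adjusted p = 0.0406, 0.042 and 0.042), and Ntf3, the gene of neurotrophin-3, passed at 1.30 ± 0.27 (edgeR adjusted p = 0.0458). These calls did not hold either. In the interaction 0 genes of the whole table passed without the batch term, with a term for replicate number, or in several fits that left out 1 library.

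Further inhibitors gave no call in the same contrast. Of 14 further phosphatases and inhibitors tested, 0 passed in WT fear against WT home cage by edgeR, with 6 at an unadjusted p below 0.05, as were 20.8% of all genes. The smallest p-values were those of the JNK and p38 phosphatase Dusp8, at 0.31 ± 0.10, and of Dusp16, at -0.49 ± 0.16 (edgeR adjusted p = 0.11 for both). Of 29 genes of the Ras to ERK cascade 0 passed there and 6 had an unadjusted p below 0.05, led by the docking protein gene Gab1 at -0.86 ± 0.23 and the small GTPase gene Rap1a at -0.44 ± 0.17 (edgeR adjusted p = 0.0628 and 0.148). Of 21 ligands and receptors 0 passed and 6 had an unadjusted p below 0.05, led by Ntf3 at -0.84 ± 0.25 and Fgf1, a fibroblast growth factor gene, at -0.40 ± 0.14 (edgeR adjusted p = 0.0773 and 0.129).

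Between KO fear and WT fear all 4 lists held called genes. In the cascade list 10 of 29 were lower, among them Nf1, Grb2, Sos1, Rasgrf2, Ksr2, Ksr1, Rasgrf1 and Frs3, and Hras, a Ras gene, was higher by 0.46 ± 0.16. Nf1, the gene of the neurofibromin that Spred1 recruits, was lower by -0.82 ± 0.20 (edgeR adjusted p = 0.0173). Of the 17 targets 7 were lower, namely Egr3, Egr1, Fosl2, Fosb, Etv1, Egr4 and Etv5. Among the other inhibitors the ERK phosphatase Dusp7 at -0.49 ± 0.15 and the receptor antagonist Il17rd at -1.02 ± 0.35 were lower and the Raf inhibitor Pebp1 at 0.38 ± 0.13 was higher. Among ligands and receptors Ntf3 and Fgf1 were higher and the receptor genes Erbb4 and Ntrk2 lower. These counts are to be read against the 12.1% of all genes called lower and the 10.2% called higher in that comparison (22.3% in either direction). In the home cage and in whole hippocampus 0 genes of the 4 lists passed by edgeR.

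The 9 genes varied widely in how alike their patterns were across the dorsal libraries. Pearson's r was taken over 17 libraries on log2 CPM with each batch's mean removed, and is a description, since the libraries share groups, batches and tissue makeup. Over the 36 pairs of members it ran from -0.40 to 0.79 with a median of 0.20. The highest values were those of Dusp4 with Spred2 (0.79), Dusp6 with Spry4 (0.78), Spry4 with Spred1 (0.78) and Dusp6 with Spred1 (0.75). By the same measure over all genes tested, Dusp6 was most like the immediate early genes Egr1 (0.95), Nr4a1 (0.94) and Junb (0.94). Spry4 was most like Irf2bp2 (0.90), Lifr (0.89) and Ppp1r15b (0.89), Dusp1 like Zranb3 (0.90), Clec1a (0.89) and Sik1 (0.83), and Spry2 like 1700112J16Rik (0.85), Bpnt1 (0.84) and Arpin (0.81). Of the 3 genes nearest to Dusp6, all 3 are in the target list above, and of those nearest to Spry4, Dusp1 and Spry2, 0 are.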

How the data were processed

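The authors deposited raw counts per gene symbol for 6 whole and 17 dorsal hippocampus libraries. Their tools, per the submitters' processing notes, included HTSeq 0.9.1, STAR and SAMtools 1.1 on mm10, with DESeq2 and limma; which annotation was counted is not stated there. Polyadenylated RNA was taken from 300 ng of total RNA, per the labels' protocols, with a kit that does not mark strand. The 9 genes and the other lists were chosen with earlier results of these data known.

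Counts of all genes went into edgeR 4.0.16 (quasi-likelihood test, R 4.3.3) after filterByExpr (count minimum 10, total minimum 15) and TMM scaling. The dorsal fit had terms for group and batch (14808 genes, 11 residual degrees of freedom), the whole hippocampus fit a term for genotype (15453 genes, 3). Two-sided p-values were adjusted by Benjamini-Hochberg across the genes tested, with a threshold of 0.05. CPM are relative to the TMM-scaled library, per kb by GENCODE M21 exon length. The SE of a log2 difference is its size over the square root of F, an approximation. Libraries of a group differed beyond sampling noise (chi-square per gene 6.10 to 62.1). All 9 genes were named in each comparison; of each other list, those that passed or else the 2 with the smallest p. Some genes of these lists are not reported here by name. For likeness, the 3 genes with the highest r were named. The code of the fits was run on simulated data without a batch effect, which does not measure how reliable the calls here are. DESeq2 1.42.0, its size factors in edgeR, no filter, no batch term, a replicate block, single batches, the 2 groups alone and each library left out were alternatives.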

Additional observations from a re-analysis of the deposited data

Results flagged for a closer look

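For Dusp6 and Spry4 the test of a difference in fear response between genotypes passed in the fit as reported, but not in most alternatives. The interaction was -0.855 for Dusp6 and -0.874 for Spry4 on the log2 scale (edgeR adjusted p = 0.0406 for both), with the dependence on single libraries given above. Neither passed without the batch term or with the replicate block. No batch held all the dorsal groups, so the interaction rests on the batch terms of the fit.

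In KO fear the lowest library of Dusp5, KO fear 1 at 8.34 CPM (61 reads), lay far below the other 3, at 11.7 to 11.9 CPM. Of 27 groups of the 9 genes tested for such a library it was the only one that stood out, and chance marks about 1 in 20. KO fear 1 was of the shallow batch B1.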

How the results depend on the processing

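Of 1386 fitted differences of the 9 genes under the alternatives, 1317 had the sign of the reported value, and all 236 of those called did, 155 of which passed. The number of the 9 called moved as follows. In WT fear against WT home cage it was 3, and 1 with the replicate block, 1 in the 2 groups alone, 0 within B1 and 1 to 3 with a library left out. In KO fear against WT fear it was 5, and 0 with the replicate block and 0 to 5 with a library left out. It was 4 without the batch term, where the call of Dusp6 was lost. Without the filter, in the 2 groups alone and within B1 it was also 4, and the call lost was that of Spred1. The interaction had 2, and 0 with the replicate block, 0 without the batch term and 0 to 2 with a library left out. Het against WT had 0, 2 by DESeq2 and 0 to 6 with a library left out, and KO against Het had 0, 2 by DESeq2, 1 (Spry2) without the filter and 0 to 4 with a library left out. The cause was not tested. Same-numbered dorsal libraries of different groups had correlations of their deviations of -0.57 to 0.41, and other-numbered ones of -0.59 to 0.68. Deviations sum to 0 within a group, which sets part of these values, so they cannot decide whether replicate numbers pair the samples. What a call lost under the block means cannot be told from them. With the KO numbers of whole hippocampus crossed, a choice made after seeing the data, the block gave 8, 1 and 24 called genes in KO against WT, Het against WT and KO against Het, with 0 of the 9.

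Counts over all genes moved by more than 1.5 times in places. In WT fear against WT home cage, 241 genes passed, 938 by DESeq2, 528 without the filter, 712 without the batch term, 15 with the block, 19 in the 2 groups alone, 5 within B1 and 6 to 829 with a library left out. The interaction gave 71, 904 by DESeq2, 130 with DESeq2 size factors, 400 without the filter, and 0 with the block or without the batch term. KO fear against WT fear gave 3298, 1544 without the batch term and 1 with the block.

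Sign changes were those of values not called in the comparison as reported. Without the batch term, WT fear against WT home cage gave -0.19 for Dusp5 and -0.18 for Spry1, KO fear against KO home cage -0.13 for Dusp5, KO against WT home cage 0.076 for Spry2 and 0.031 for Spry4, KO fear against WT fear 0.26 for Dusp1, 0.059 for Spry1 and 0.046 for Spry2, and the interaction 0.052 for Dusp5. In KO against WT home cage Spry2 was 0.0017 with DESeq2 size factors, 0.0026 without the filter, 0.0046 by DESeq2, 0.084 in the 2 groups alone and 0.074 within B2, and Spry4 0.0078 in the 2 groups alone. Dusp5 was -0.046 there and 0.054 in the interaction with the replicate block, and in KO fear against WT fear -0.012 with DESeq2 size factors, -0.013 by DESeq2, -0.0053 in the 2 groups alone and -0.0033 within B1. In KO fear against KO home cage Spry4 was 0.030 in the 2 groups alone and 0.026 within B3, and Spred2 0.21 in both.

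With a library left out, which in whole hippocampus leaves a group with a lone sample assumed to vary like the others, the ranges that crossed 0 were, in Het against WT, -0.12 to 1.00 for Dusp1, -0.12 to 0.27 for Dusp6 and -0.099 to 0.048 for Spred2, in KO against WT -0.026 to 0.070 for Dusp4, and in KO against Het -0.23 to 0.16 for Dusp6 and -0.17 to 0.11 for Spred1. In WT fear against WT home cage Spry1 ran from -0.090 to 0.23. In KO fear against KO home cage Spred2 ran from -0.21 to 0.079 and Spry4 from -0.14 to 0.010. In KO against WT home cage Spry2 ran from -0.037 to 0.043, Spry4 from -0.12 to 0.014 and Dusp5 from -0.077 to 0.071. In KO fear against WT fear Dusp5 ran from -0.18 to 0.17 and Dusp1 from -0.40 to 0.12, and in the interaction Dusp5 from -0.20 to 0.15 and Spry1 from -0.020 to 0.21. Depth limits the B1 libraries most, where Dusp5 had 39 to 112 reads.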
